A study of Mus musculus with 8 samples.

Results

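The members of the p53 pathway were the 32 rows of the deposited gene table whose gene name matched a list of p53 regulators and p53 target genes, out of 19429 genes in all. In mouse embryonic stem cells (mESCs) of the line LF2, Trp53 was by far the most abundant of them per kilobase of exon, and its targets were spread widely. Of the targets grouped under cell cycle and apoptosis, the highest, Ccng1, Cdkn1a and Bax, were at or above the 92.3rd percentile of protein-coding genes. Bbc3 and Btg2 were at the 83.9th and 80.6th, and Pmaip1 was at the 38.7th. The death receptor gene Fas was represented by only 6 reads. The data compare cells with wild-type TET1 (WT, lines 2 and 5) and cells in which an aspartate of TET1 that contributes to binding of the glycosyltransferase OGT was replaced by alanine on both alleles (D2018A, lines 7 and 8). Every line, WT included, carried a FLAG tag on the TET1 C-terminus followed by a 2A peptide and GFP or tdTomato. All were made with CRISPR-Cas9, a nuclease that cuts DNA at a guided site, selected with puromycin, and expanded from a sorted single cell in medium with LIF and serum. Per the study, the WT lines also lost a stretch of DNA distal to the cut, and singly targeted cells with wild-type TET1 and an intact copy of that stretch, not analysed here, served as its control for this loss. Thus each line is 1 clone, and there are 2 clones per genotype with 2 technical replicates each.

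The p53 protein is a transcription factor that is kept low by the ubiquitin ligase MDM2 and its partner MDM4 and is stabilised when DNA is damaged. It then activates genes that halt the cell cycle, repair DNA, adjust metabolism or start apoptosis. mESCs are known for abundant p53, and because Cas9 cuts DNA, the p53 response is a natural question to ask of edited clones.

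Whether p53 targets differ between the genotypes was not analysed here. The only measurement used from the deposited table was the mean normalised count of each gene, which the authors averaged over all libraries, and the columns of their own comparison were left aside. A mean of this kind carries no value per line and no spread between replicates, so every statement below is about the pooled cells of both genotypes. The pool was also wider than the 8 described samples. Where only 1 read was counted in the whole pool, the mean depends on nothing but the size factor of the library that held it, and the smallest means fell on 12 such values, each shared by 38 to 123 genes. Hence the authors' mean appears to cover 12 libraries, of which 4 are not among the samples, and the methods for RNA-seq do not describe these 4. The study derived further lines of each genotype, but whether the 4 libraries came from them is not stated. The size factors ran from 0.726 to 1.47, so the deepest library had about 2.03 times the relative depth of the shallowest. The mean normalised total was 10937569 counts, of which the 32 members made up 0.307%.

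Levels of different genes were compared as mean normalised counts per kilobase of exon, hereafter the level. The interval in parentheses after a level is a 95% Poisson interval for the reads behind the mean. These reads were estimated as the mean times the summed size factors, so the interval is approximate. It covers counting error only, and the variation between clones or cultures, which it leaves out, may be much larger. Counting error (the inverse square root of the reads) was under 5% for 30 of the 32 members, Fas and Pmaip1 being the exceptions. As a check of the cell type, all 8 mESC markers had levels from 519.5 (Zfp42) to 3817 (Esrrb), at or above the 94.5th percentile of protein-coding genes. The fibroblast or feeder markers Col1a2 and Col3a1 had levels of 0.0554 and 0.00948, and Dcn, Lum and Postn had no row. Col1a1 (17.5) and Thy1 (64.8) were higher, at the 44.6th and 65.9th percentiles of protein-coding genes. A contribution of feeder cells was not tested. The 12 listed endoderm, neural and mesoderm markers with a row had levels from 0.902 (Mesp1) to 41.2 (Sox1), with a median of 3.92. In a bulk RNA sample, few cells with a high level and many cells with a low level cannot be told apart.

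To see which members carry a p53 binding sequence close to their start, RefSeq promoters (GRCm38.p6, 250 bases before to 50 bases after a gene's start) were searched for the p53 consensus full site. This site is a pair of 10-base copies without a spacer and reads the same on both strands. A match kept the central C and G of both copies and was at most 2 bases off elsewhere. Promoters were found for 24 members, which have 33 promoters together. No promoter was in the table for Ddb2, Perp, Pmaip1, Rrm2b, Tnfrsf10b, Trp53inp1, Xpc and Zmat3. Of the 33, 3 promoters (9.09%) held a match, those of Ccng1, Cdkn1a and Ckap2, and among all 32851 promoters listed 107 (0.326%) did. These 3 are shown because they carry the recognisable site, with the 20 bases of the match in capitals. They lie at chr11:40755237-40755536 (Ccng1, minus strand), chr17:29090729-29091028 (Cdkn1a, plus strand) and chr8:22185770-22186069 (Ckap2, minus strand), and each is written in the direction of its gene.
Ccng1: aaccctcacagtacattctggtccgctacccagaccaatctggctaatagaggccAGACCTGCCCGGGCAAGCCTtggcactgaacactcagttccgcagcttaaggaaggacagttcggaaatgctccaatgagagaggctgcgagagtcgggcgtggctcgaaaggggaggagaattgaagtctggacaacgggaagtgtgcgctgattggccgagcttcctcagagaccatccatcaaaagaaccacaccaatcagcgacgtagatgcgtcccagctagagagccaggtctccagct
Cdkn1a: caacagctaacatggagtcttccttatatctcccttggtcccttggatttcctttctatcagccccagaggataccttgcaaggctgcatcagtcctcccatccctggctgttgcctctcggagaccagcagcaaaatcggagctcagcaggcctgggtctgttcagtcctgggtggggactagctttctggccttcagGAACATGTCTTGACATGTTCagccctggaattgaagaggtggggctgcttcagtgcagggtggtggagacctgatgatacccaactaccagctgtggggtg
Ckap2: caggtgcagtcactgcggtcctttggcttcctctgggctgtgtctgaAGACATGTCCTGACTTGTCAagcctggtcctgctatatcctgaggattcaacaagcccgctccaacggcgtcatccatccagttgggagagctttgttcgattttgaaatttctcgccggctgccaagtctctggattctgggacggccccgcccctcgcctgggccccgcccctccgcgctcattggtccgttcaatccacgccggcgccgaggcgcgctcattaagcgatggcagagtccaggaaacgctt

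The match began 51 bases before the RefSeq start of Cdkn1a, 195 bases before that of Ccng1 and 203 bases before that of Ckap2. It was 1 base off the consensus in Ccng1 and Cdkn1a and 2 bases off in Ckap2. None of the members' promoters held a site without a departure from the consensus. With 3 bases off allowed, 9 of the 33 promoters (27.3%) held a match, against 1.38% of all promoters. The 9 belonged to 8 genes, adding Aen, Bbc3, Sesn1, Tigar and Trp53. The Aen promoters overlap each other and hold the same site, which is thus counted in both. A match describes letters and not binding, and many p53 sites lie outside this window, in introns or further upstream. The members were listed as p53 regulators and targets, so a higher share of matches among them is a description and carries no test. Cdkn1a has another RefSeq start downstream, with its promoter at chr17:29093519-29093818, which held no match.

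The members' promoters were also rich in C and G. Their median GC content was 64.7%, against 52.7% over all promoters, and 23 of 33 (69.7%) had an observed over expected CpG ratio of at least 0.6, against 35.8% of all promoters. Promoters and not genes were counted, and these 23 belonged to 19 of the 24 genes. The Aen promoters overlap each other, as do those of Bbc3 at chr7:16310011-16310310 and chr7:16310181-16310480. The GC box, spelled GGGCGG on either strand, was found in 72.7% of member promoters and 35.7% of all. The TATA box, spelled TATAAA on either strand, was found only in those of Eda2r and Trp53 (6.06%, against 13.6% of all), and CCAAT on either strand in 48.5% against 37.4%. The GC box itself contains a CpG, so these measures overlap. The Cdkn1a promoter printed above had a CpG ratio of 0.0892, while the one downstream had 0.786.

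Among protein-coding genes the members lay high. Their median level was 132 counts per kilobase, at the 79.0th percentile of 16922 protein-coding genes, whose own median was 24.5. Throughout, these are the protein-coding genes with a row, a nonzero mean and an exon length. Genes without a row are left out of every percentile and share of protein-coding genes. Of the 32 members, 27 were above that median and 5 below it, 19 were in the top quartile, and 1 (Fas) was in the bottom quartile. A mean of at least 10 counts was reached by 31 of the members (96.9%), and by 73.3% of protein-coding genes. The list was assembled from well known genes of the pathway, so a position above the average gene is a description and carries no test. On the same scale the 79 ribosomal protein genes, looked up later, had a median level of 86.0, below that of the members. Whether the level ranks genes by RNA abundance was not tested.

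**Figure D1:**
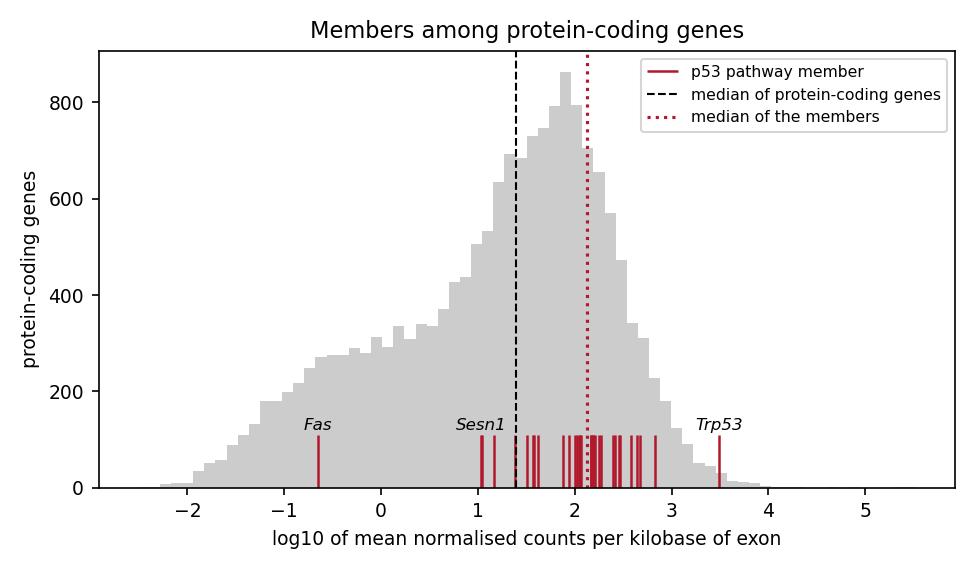
The histogram shows the number of protein-coding genes (vertical axis) by the log10 of mean normalised counts per kilobase of exon (horizontal axis), with a red tick for each of the 32 members. Most ticks lie to the right of the dashed median of 24.5, with Trp53 at the far right at 3073 and Fas at the far left at 0.222.

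The core of the pathway was dominated by Trp53 itself. Trp53 (chromosome 11, 69580359 to 69591873, plus strand) had a mean over the 12 libraries of 12432 counts, 37.0% of the sum over all members. Its level was 3073 (3058 to 3089) per kilobase, at the 99.6th percentile. The next member, Sesn2, was at 673. A processed copy of the gene, Trp53-ps, shares some sequence with it, and 3.95% of the 50-base stretches of Trp53 transcripts also occur in other genes.

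The genes that restrain p53 had far lower RNA levels than Trp53. These levels do not measure the proteins, their stability or the restraint of p53. Mdm2 (chromosome 10, 117688875 to 117710758), the ubiquitin ligase that degrades p53 and is itself a p53 target, had a mean of 510.3 counts and a level of 100.4 (97.9 to 103). Mdm4 (chromosome 1, 132959484 to 133030561), the MDM2 relative that blocks p53 without ligase activity of its own, had a mean of 1688 and a level of 114 (113 to 116). Per kilobase Trp53 was thus 30.6-fold above Mdm2 and 27.0-fold above Mdm4, or 23.4-fold and 15.98-fold with the longest transcript as the length. The level of Mdm4 was 1.14-fold that of Mdm2 (1.46-fold with the longest transcript), although its mean was larger, because its annotated exons cover 14798 bases against 5083. Cdkn2a (chromosome 4, 89274471 to 89294653) encodes the MDM2 inhibitor ARF and, from another first exon, the cell cycle inhibitor INK4A, and these were not separated by the gene count. It was the lowest of the core genes, with a mean of 37.4 and a level of 31.9 (29.1 to 34.9), still at the 54.0th percentile. Of the p53 relatives, which are not members, Trp73 had a level of 16.9 and Trp63 of 0.130.

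**Figure D2:**
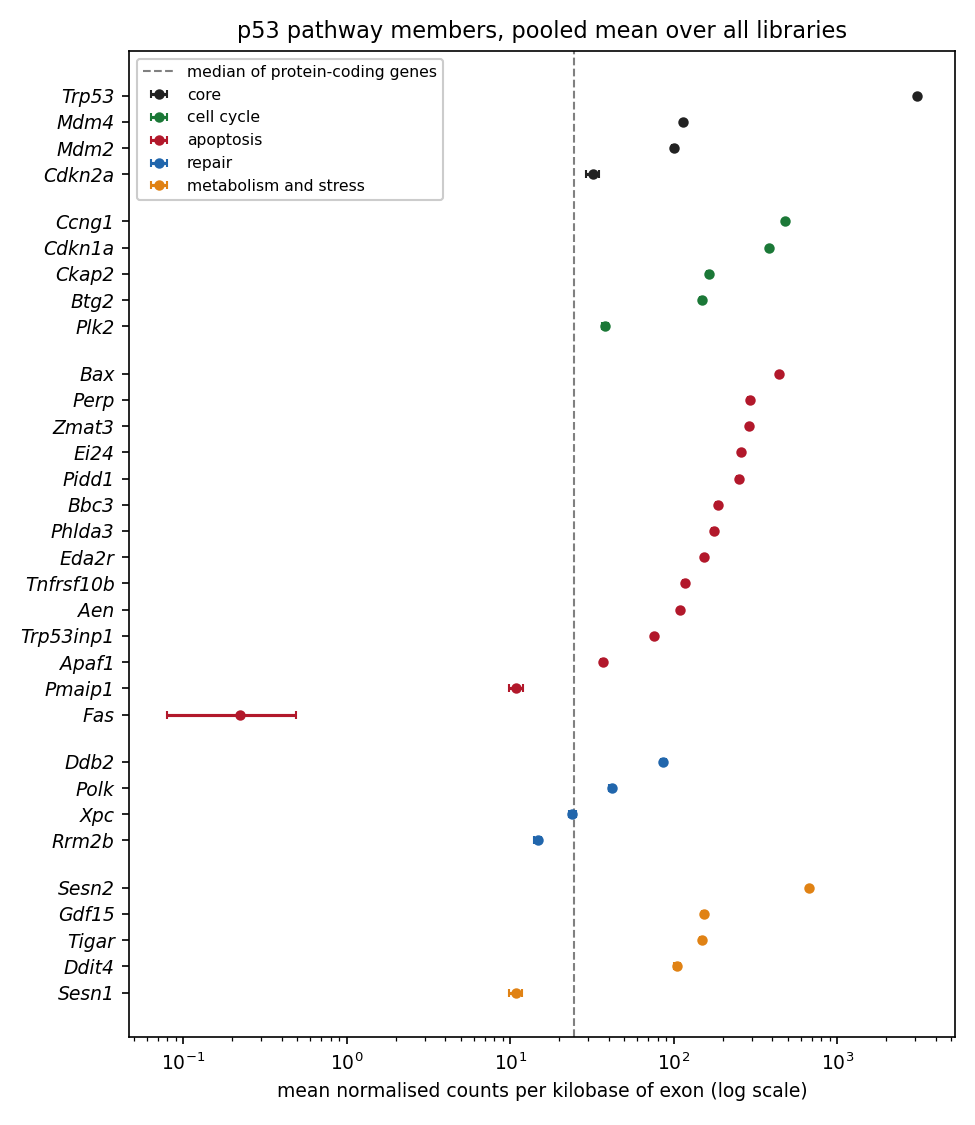
Points give the level of each member as mean normalised counts per kilobase of exon on a log axis, grouped and coloured by role, and horizontal bars give 95% Poisson intervals, which are mostly narrower than the points. The dashed line marks the median of protein-coding genes, 24.5, and Xpc, Rrm2b, Pmaip1, Sesn1 and Fas lie to its left.

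The target genes grouped under the cell cycle had levels from 38.1 to 477. Ccng1 (chromosome 11, 40748552 to 40755311), which encodes cyclin G1, was the highest of them, with a mean of 1674 and a level of 477 (470.3 to 483). Cdkn1a (chromosome 17, 29090979 to 29100722), which encodes the CDK inhibitor p21, followed with a mean of 1370 and a level of 385 (380 to 391), at the 92.3rd percentile. These are 2 of the 3 members whose promoters are printed above. The third, Ckap2, which encodes a microtubule protein of dividing cells, had a level of 163 (159 to 167). The antiproliferative gene Btg2 had 148 (144 to 152) and Plk2, a polo-like kinase gene, 38.1 (36.5 to 39.8). Trp53 was 7.97-fold above Cdkn1a.

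The order of Ccng1 and Cdkn1a depended on the gene length. Cdkn1a lay at 0.809 of Ccng1 with the union of all annotated exons, but at 658 against 477 with the longest annotated transcript, so their order is not settled by these data. An annotated gene on the opposite strand overlaps 7.68% of the Cdkn1a exon bases, and whether reads were assigned by strand is not given in the sources used here. Opposite-strand genes likewise overlap 8.04% of the exon bases of Rrm2b, 6.66% of those of Ei24 and 3.34% of those of Tigar.

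The 14 apoptosis genes ranged from Fas, at 0.222 and resting on 6 reads, to Bax. Without Fas the lowest of them was Pmaip1 at 10.9. Bax (chromosome 7, 45461697 to 45466898), an effector that permeabilises mitochondria, was the highest, with a mean of 697 and a level of 442 (433 to 452). However, 192 (12.2%) of the Bax exon bases overlap Gm45808, an annotated gene on the same strand, so this value is uncertain. Perp, a membrane protein gene, had 292 (285 to 299), Zmat3, an RNA-binding protein gene, 289 (287 to 292), Ei24 257.5 (253 to 262) and Pidd1, which encodes a scaffold for caspase-2, 249 (245 to 254). The intervals of Perp and Zmat3 overlapped, as did those of Ei24 and Pidd1. Zmat3 had the second highest mean of all members, 3310 counts, spread over 11435 bases of exon.

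The BH3-only activators Bbc3 and Pmaip1 differed strongly in level. Bbc3 (chromosome 7, 16308393 to 16318205), which encodes PUMA, had a mean of 395 and a level of 186 (181 to 191). Pmaip1 (chromosome 18, 66458604 to 66465550), which encodes NOXA, had a mean of 29.8 and a level of 10.9 (9.81 to 12.1), so that Bbc3 was 17.1-fold higher per kilobase. Other apoptosis genes lay between these values: Phlda3, an AKT inhibitor gene, at 177, the TNF receptor family gene Eda2r at 153, the exonuclease gene Aen at 110.1, Trp53inp1 at 76.3 and the apoptosome gene Apaf1 at 36.9.

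The death receptors also lay far apart. Tnfrsf10b (chromosome 14, 69767472 to 69784411), the mouse receptor for TRAIL, had a mean of 636 and a level of 117 (114 to 119). Fas (chromosome 19, 34290659 to 34327770) had a mean of 0.459 and a level of 0.222 (0.0792 to 0.493), the lowest of all members, at the 9.38th percentile. The mean of Fas can be written in only 1 way as a sum of single-read steps, namely as 6 reads in 2 of the 12 libraries, with at most 3 in either. With an exact Poisson interval of 2.20 to 13.1 reads over the whole pool, Fas was close to undetected at this depth. The mean does not tell which lines these reads came from.

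The DNA repair genes were the lowest role, with a median level of 32.9. Ddb2 (chromosome 2, 91211572 to 91236982), which recognises ultraviolet damage, had 86.4 (83.3 to 89.6). However, its exons share 652 bases (23.8%) with Acp2 on the opposite strand, so this value is uncertain. Polk, a translesion polymerase gene, had a level of 41.8 (40.3 to 43.4), Xpc, which recognises bulky lesions, 23.9 (22.8 to 25.1), and Rrm2b, the p53-inducible subunit of ribonucleotide reductase, 14.7 (14.0 to 15.5). Xpc and Rrm2b were below the median of protein-coding genes.

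The genes of metabolism and stress were split by the sestrins, which restrain mTORC1 under stress. Sesn2 (chromosome 4, 132492032 to 132510501) was the second highest member, with a mean of 2338 and a level of 673 (665 to 681). Sesn1 (chromosome 10, 41809935 to 41908424) was the second lowest, with a mean of 43.0 and a level of 10.8 (9.90 to 11.7). Sesn2 was 62.4-fold above Sesn1, and 59.6-fold with the longest transcript as the length. Between them lay Gdf15, which encodes a secreted stress factor, at 154 (149 to 159), Tigar, which encodes a phosphatase that lowers glycolysis, at 148 (145 to 152), and Ddit4, another inhibitor of mTORC1, at 105 (101 to 109.5).

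In the order of all 32 levels, 19 of the 31 neighbouring pairs had intervals that did not overlap and 12 had intervals that did. The overlapping pairs included the run from Gdf15 through Eda2r and Tigar to Btg2, the run from Tnfrsf10b through Mdm4, Aen and Ddit4 to Mdm2, and Pmaip1 with Sesn1. Since replicate spread is unknown, pairs with separate intervals differ in reads and not necessarily between cultures.

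For most members the length used moved the level by more than its counting error. With the longest annotated transcript in place of the union of exons, 27 members had a higher level and none a lower one, by up to 2.11-fold for Ei24. Btg2, Ccng1, Ddit4, Perp and Sesn2 did not move at all, and Tigar, Pmaip1, Sesn1 and Fas moved within their counting intervals. The ratio exceeded 1.5 for Cdkn1a, Ei24, Mdm2, Mdm4, Plk2, Rrm2b and Tnfrsf10b. Only 3 members, Mdm2, Mdm4 and Tnfrsf10b, moved by more than 3 places in the order, Mdm4 by 8, and the rank correlation of both orders was 0.97 across the 32 genes.

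**Figure D3:**
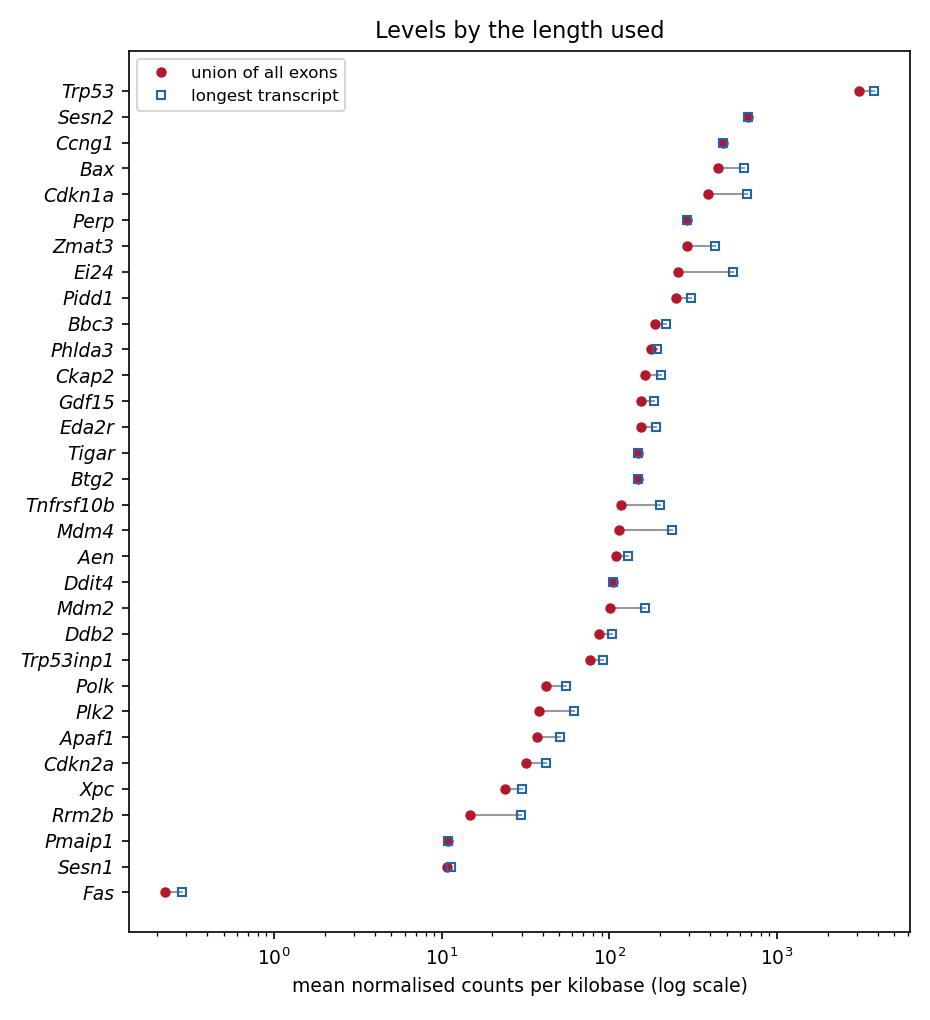
Each row is a member, and the horizontal log axis gives mean normalised counts per kilobase with the union of exons (red circles) or the longest transcript (blue squares) as the length. Trp53, Sesn2 and Fas keep their places under both, whereas Mdm4 rises from 114 to 238 and Ei24 from 258 to 543.

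Finally, the other genes of the pathway were placed on the same scale. All 14 genes of damage signalling had a mean of at least 10, as did 73.3% of protein-coding genes. The median level of these 14 was 68.1. The highest was the histone gene H2afx at 5159 and the lowest Atrip, the partner of ATR, at 1.43. Of the 15 listed p53 modifiers and cofactors, 14 had a row, with a median of 254. Pml, the organiser of nuclear bodies, was the highest at 1409, and the ribosomal protein gene Rpl11 the lowest at 1.83. For Rpl11, 17.7% of 50-base stretches are shared with other genes. The 79 ribosomal protein genes together had a median level of 86.0, at the 71.2nd percentile and below the members' median of 132. Gapdh had 236 against 21673 for Actb. These abundant genes were looked up after the low value of Rpl11 was seen, and the part of shared sequence in their levels was not tested. Among members, 14 shared any such stretch, at most 17.8% in Ddb2, and Fas, Sesn1 and Pmaip1 shared none. Of 15 other p53 targets, 14 had a mean of at least 10, beside the same 73.3% of protein-coding genes. The median of these 15 was 197. Psrc1 was the highest at 2868, close to Trp53, and Spata18 the lowest at 0.348.

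**Figure D4:**
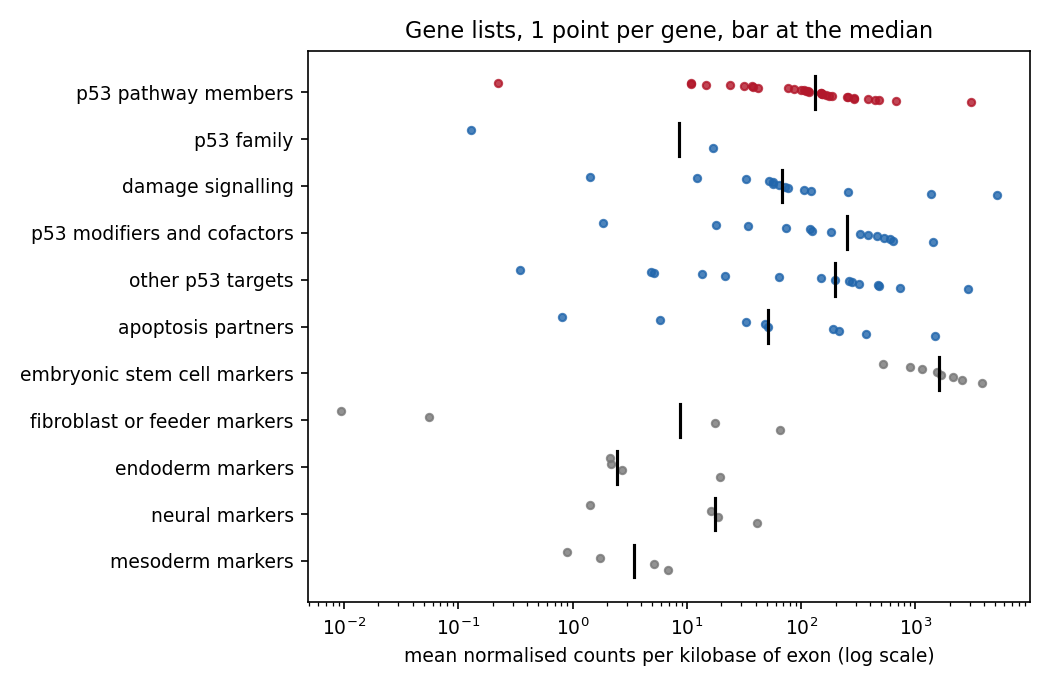
Each point is a gene, placed by mean normalised counts per kilobase of exon on a log axis, with a black bar at the median of each list. The median of the mESC markers (1599) lies to the right of that of the p53 pathway members (132). The medians of the endoderm, neural and mesoderm markers lie to the left, with their genes all at 41.2 or below. Single genes overlap, as Trp53 (3073) lies among the mESC markers and Sesn1 (10.8) among the lineage markers.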

How the data were processed

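RNA was measured in 8 samples, 2 technical replicates of each of 2 WT and 2 D2018A lines. Per the study's methods, ribosomal RNA was removed, the Lexogen SENSE kit was used for library preparation and reads were single-end with 50 bases. Per the submitters' processing notes, STAR 2.5.3a, DESeq2 1.20.0 and GRCm38.p6 were used. The deposited signal is the authors' mean of counts divided by size factors, over all libraries of their fit. The deposited fold changes, standard errors, statistics and p-values are the authors' own comparison and were not used. A count test on reads per line had been planned and could not be run on a mean. Columns of single samples left unused numbered 0.

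Exon lengths came from GENCODE vM21 (GRCm38) by gene identifier for 19342 of 19429 genes, and 29 of 32 members had identical spans in both. Libraries were counted from the values a single read can give, each required in 30 or more genes and equal to no combination of smaller values, which was tested on simulated data. Python 3.11.15, pandas 2.3.3 and scipy 1.17.1 were used. The planned search for p53 sites within 5 kb needs a genome sequence and was replaced by RefSeq promoters. All 32 members are named, and from each further list the highest and lowest gene, with a few other genes chosen after their values were seen (the remaining fibroblast markers, Gapdh, Actb, the ribosomal protein genes, Mcl1, Bcl2l1 and Cycs). The members and lists were chosen with earlier results of these data known.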

Additional observations from a re-analysis of the deposited data

How the results depend on the processing

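The percentile of the members' median level, 79.0 among protein-coding genes, lay between 73.5 and 81.4 under every alternative tried. It was 81.4 among all genes of the table, 77.9 and 73.5 with genes and members limited to a mean of at least 1 and at least 10, 78.3 with the longest transcript as the length and 76.6 over the 26 members whose exons overlap no other gene. In settings chosen after seeing the data it was 76.8 without Trp53 and 77.4 as the median of the members' percentiles within 5 equal groups of genes by GC content. The number of members past the minimum mean was 31 at 10, 31 at 1 and 28 at 100. Of the 16922 protein-coding genes, 12399 passed at 10 and 14867 at 1, and the number at 100 was not computed. In promoters, chosen after seeing the data in place of the planned windows of 2.5, 5 and 10 kb, which were not run, 3 genes held a p53 site with 2 bases off, 0 with none off, 2 with 1 off and 8 with 3 off. Among all 32851 promoters, 3 (0.00913%) held a site with none off and 22 (0.0670%) with at most 1 off. The members' 33 promoters held 0 and 2 (6.06%). Fewer departures allowed give fewer matches by construction. The alternatives planned for a test between genotypes were not run. No paired analysis was possible because the table gives a single mean over all libraries and no values per replicate. Without values per library no replicate could be left out. Depth limits Fas, with 6 reads, and Pmaip1, with about 371.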

Other observations

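The genes of the mitochondrial apoptosis machinery beyond the members ranged widely. Of 9 listed partners, 8 had a mean of at least 10, as did 73.3% of protein-coding genes, and their median level was 51.8 counts per kilobase, at the 61.9th percentile. Bak1, the effector related to Bax, was the highest at 1489 (1475 to 1503), and Bax lay at 0.297 of it, or 0.422 with the longest transcript. The survival genes Mcl1 and Bcl2l1, named after their values were seen, had levels of 372 and 214, while Bcl2 was the lowest at 0.810 (0.653 to 0.993). Cycs, which encodes cytochrome c, had 5.77 (5.07 to 6.54). Sequence shared with other genes was not examined for Cycs or the other listed partners, so its part in their levels was not tested.

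Levels rose with the GC content of the longest transcript. Over 5 equal groups of protein-coding genes by GC content, the median level was 15.0, 22.2, 27.0, 32.1 and 40.4 from low to high, and the rank correlation across 16922 genes was 0.16. Across the 32 members it was 0.38, with 9 members in the lowest group and 8 in the highest. Genes share libraries and are not independent replicates, so no p-value is given. The part of GC content in the order of the members was not tested.

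Tet1, the edited gene, had a level of 1493, Tet2 921 and Ogt 603. A pooled mean cannot check the genotype of any library.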
